A study of Homo sapiens with 9 samples.

Results

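The regions described here are stretches of open chromatin that lay at the ends of protein-coding genes and were listed in SK-N-MC Ewing sarcoma cells with CHD4 silenced by either of 2 hairpins and with a control hairpin alike. They are called constitutive gene-end regions. The 3 deposited region lists were merged on chromosomes 1 to 22 and X where regions shared at least 1 bp, and a merged region was selected when it was narrower than 5 kb, held a region of each list and overlapped a window of 1 kb on either side of a gene end. This left 9521 of 130417 merged regions (7.30%). Presence in the 3 lists, position at a gene end and width under 5 kb chose the regions, so none of these is a finding. Of all merged regions under 5 kb found in every list, they made up 25.2%, and the other 28294, away from gene ends, serve as the comparison.

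The study asked how DNA accessibility differs once CHD4 is silenced. CHD4 is the motor subunit of NuRD, a complex that remodels chromatin. SK-N-MC, an established Ewing sarcoma cell line with a wildtype genotype per the labels, carried an inducible short hairpin RNA: shCHD4#1, shCHD4#2 or the non-targeting shScramble. Cells of all 3 groups received 100 ng/ml doxycycline for 48 h, so the control cells were exposed to it too. Each group had 3 biological replicates, and 100 Drosophila S2 cells were added to 100000 human cells of each sample. Whether the lines were clones is not given in the sources used here. ATAC-seq tags open DNA with the Tn5 transposase. Each group had a single deposited list, and it is an inference that this list stands for all 3 of its replicates. No error between replicates could be computed from 1 list, so no difference between groups was tested.

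Active promoters are kept free of a positioned nucleosome just upstream of the transcription start, which places them among the stably open sites of a genome. Promoters of broadly used genes are often rich in CpG dinucleotides and bind general factors such as NRF1, NFY, YY1, ZBTB33 and ETS proteins. NuRD moves nucleosomes and removes histone acetyl groups, and it is found at promoters and enhancers alike.

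Promoters in the selected regions are shown first, because their letters can be set beside the values that follow. For each of 7 sequence motifs, the promoter shown is that of the best-ranked region with the motif in the 150 bases before the gene start, among regions with 1 gene. Capitals mark matches to the motifs searched, on either strand. The sequences are RefSeq's for GRCh38.p14, written 5′ to 3′ along the gene.
ZNF286A (chr17:15699602-15699751, plus strand): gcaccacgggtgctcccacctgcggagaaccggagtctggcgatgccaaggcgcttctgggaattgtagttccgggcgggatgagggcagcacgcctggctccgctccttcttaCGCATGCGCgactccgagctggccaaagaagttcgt
CPEB4 (chr5:173888199-173888348, plus strand): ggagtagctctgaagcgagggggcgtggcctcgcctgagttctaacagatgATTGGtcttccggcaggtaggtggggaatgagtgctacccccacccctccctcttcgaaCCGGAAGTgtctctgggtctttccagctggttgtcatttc
PMM1 (chr22:41589841-41589990, minus strand): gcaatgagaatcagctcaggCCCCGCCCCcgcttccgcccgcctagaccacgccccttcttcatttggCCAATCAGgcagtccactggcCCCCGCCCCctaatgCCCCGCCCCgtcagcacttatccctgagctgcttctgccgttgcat
HACD2 (chr3:123585054-123585203, minus strand): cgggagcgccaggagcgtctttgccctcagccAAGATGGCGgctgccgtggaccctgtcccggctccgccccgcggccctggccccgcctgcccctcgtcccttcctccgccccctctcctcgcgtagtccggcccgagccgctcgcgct
POT1 (chr7:124929826-124929975, minus strand): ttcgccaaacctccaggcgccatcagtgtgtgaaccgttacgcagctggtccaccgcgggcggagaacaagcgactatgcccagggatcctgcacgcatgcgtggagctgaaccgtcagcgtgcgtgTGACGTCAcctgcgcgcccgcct
RC3H2 (chr9:122905360-122905509, minus strand): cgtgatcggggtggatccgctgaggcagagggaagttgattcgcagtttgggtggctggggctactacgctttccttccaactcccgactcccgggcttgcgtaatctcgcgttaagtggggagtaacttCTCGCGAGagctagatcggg
JPT1 (chr17:75154513-75154662, minus strand): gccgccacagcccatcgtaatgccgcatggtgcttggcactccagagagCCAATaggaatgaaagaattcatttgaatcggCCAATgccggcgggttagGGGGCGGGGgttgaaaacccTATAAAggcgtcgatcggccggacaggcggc

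The promoter of ZNF286A, a zinc finger gene, holds the NRF1 motif with its first base at position -36, counted back from -1 just before the start. CPEB4, which encodes a cytoplasmic polyadenylation element binding protein, has an ETS motif at -40 and an inverted CCAAT box at -99. PMM1, a phosphomannomutase gene, has 3 inverted GC boxes and a CCAAT box with its flank at -82. HACD2, of very long chain fatty acid synthesis, has the YY1 motif at -118, and POT1, which protects telomeres, has a cyclic AMP response element at -23. RC3H2, an RNA-binding ubiquitin ligase gene, has the ZBTB33 motif at -20. JPT1 is the one shown with a TATA box, at -31. These 7 regions were numbers 55 to 540 in the shCHD4#2 list. ZNF286A has a near-identical copy elsewhere in the genome, so the placing of its reads is uncertain.

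Regions of the lists were ranked by the authors' p-value, from the best, and a rank is given as a percent of the list's length (rank point). Ranks describe a list and do not show a change between lists. The selected regions stood at a median rank point of 19.2 in the shCHD4#1 list, 20.6 in the shCHD4#2 list and 28.5 in the shScramble list. Constitutive regions away from gene ends stood at 24.3, 37.7 and 30.7 in the same lists. In all 3 lists 2127 of the selected regions (22.3%) had an authors' p of at most 0.05, against 8.85% of those away from gene ends, and 4974 (52.2%) reached it in none. A merged region took the best rank and lowest p of its listed regions. More than 1 region of a list lay in 27.2%, 25.7% and 26.7% of the selected regions with shCHD4#1, shCHD4#2 and shScramble. Away from gene ends this held for 17.2%, 18.9% and 12.9%, and its part in these comparisons was not tested. The order of the selected regions was partly shared: of the 1905 that ranked best in the shScramble list, 71.2% were also among the best 1905 with shCHD4#1 and 73.1% with shCHD4#2. Spearman's rho of rank points over the 9521 regions was 0.66 between shCHD4#1 and shScramble, 0.68 between shCHD4#2 and shScramble and 0.74 between the hairpins against CHD4. The regions are not independent points, and the lists come from the same cell line and genome.

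The share of each list's regions that lay in this set fell from the best-ranked decile to decile 9. Of the regions in decile 1 by p, 25.4% with shCHD4#1, 36.0% with shCHD4#2 and 29.4% with shScramble lay in constitutive gene-end regions, and in decile 9 these shares were 2.77%, 4.57% and 5.77%. In decile 10 they were higher again, at 11.8%, 18.1% and 26.5%. That decile is made largely of regions that carry the most frequent p of their list, 0.949 with shCHD4#1, 0.954 with shCHD4#2 and 0.951 with shScramble. These were 8099, 5119 and 7421 regions, and their second authors' value, a score without a stated unit, was high: its median was 653, 757 and 726 for them and 203, 227 and 219 for the rest of the same lists. Ranked by that second value, decile 10 held 1.82%, 3.64% and 4.10% in constitutive gene-end regions, and the shares had no such upturn. At 155 of the selected regions (1.63%) the best region of every list carried the shared p, so those regions cannot be ordered among themselves.

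**Figure D1:**
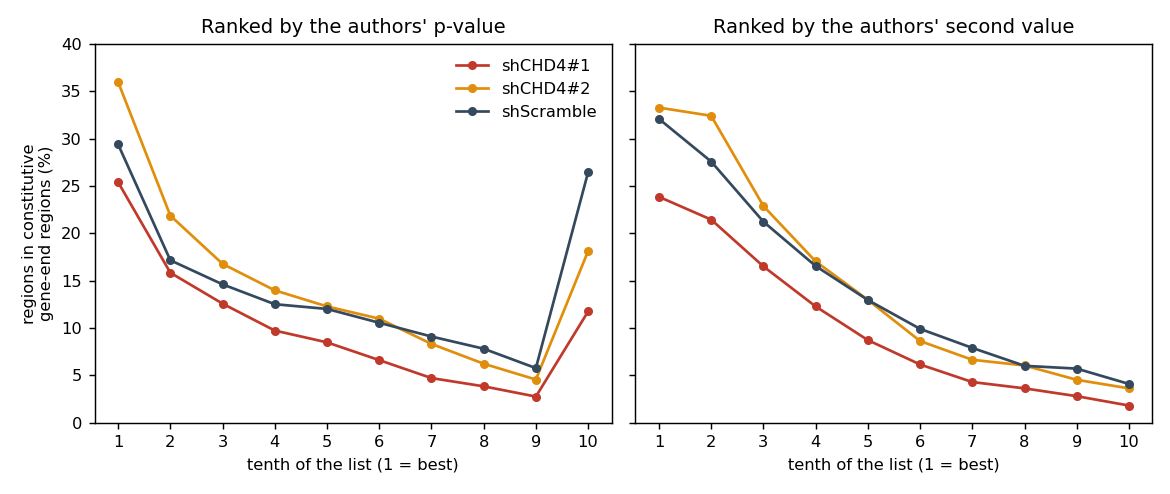
Percent of each list's regions that lie in constitutive gene-end regions, by decile of the list (1 is the best), ranked by the authors' p-value (left) and by their second value (right). Lines are the lists of shCHD4#1, shCHD4#2 and shScramble; all start at 23.9% or more, and the upturn in decile 10 is seen only on the left.

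Of the 10 regions that ranked best in every list, 7 lay at 1 gene and 3 at 2 genes. The region at ATP5F1B, the catalytic beta subunit of the mitochondrial ATP synthase (chromosome 12, 56644291 to 56648330), was number 52 with shCHD4#1, 29 with shCHD4#2 and 22 with shScramble, and 2650, 2870 and 1820 bp wide. STIP1, a cochaperone of HSP70 and HSP90 (chromosome 11, 64184691 to 64188950), was at 75, 46 and 41. STT3A, the catalytic subunit of an oligosaccharyltransferase (chromosome 11, 125590681 to 125594570), was at 79, 60 and 44, and was 3620, 3290 and 3890 bp wide. ELOC, which encodes elongin C (chromosome 8, 73971011 to 73974720), was at 92, 81 and 38. The others were at LOC124903573, at FAM185A, at ZNF286A, at FBRS with PRR14, and between the starts of C2CD3 and PPME1 and of DRC3 and TOM1L2. Their ranks in all lists lay between 22 and 115.

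Most regions lay at a gene start. The reference table gave a strand and start for 15811 of 19970 protein-coding genes (79.2%), and 6737 regions (70.8%) had a known start within their window. Of all 9521, 5249 (55.1%) had starts in 1 direction within 1 kb and no end of another gene. Starts in both directions lay within 1 kb of 799 (8.39%), and a start together with an end of another gene within 1 kb of 689 (7.24%). Only 3′ ends lay within 1 kb of 1114 (11.7%), and 1670 (17.5%) could not be placed for want of a strand. A start within 1 kb need not lie inside the region. Among the 799, genes were arranged head to head in 593, with a median of 183 bp between the starts. Regions at head-to-head starts ranked better than the whole set, with median rank points of 10.5 with shCHD4#1, 8.96 with shCHD4#2 and 13.3 with shScramble. They were also wider, at 1790, 1595 and 1750 bp, where 1 region stood in each list. Regions with only 3′ ends ranked at 26.0, 34.9 and 30.7. Ends of 1 gene lay at 7619 regions, of 2 genes at 1787 and of 3 or more at 115. The most genes shared the last exons of the gamma protocadherin cluster on chromosome 5 (141512741 to 141516000 and the abutting 141509371 to 141512740), which the cluster's genes end with.

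Around 5880 starts with a placed outer end, the lists covered the bases just upstream most often. The highest coverage was 76.8% at -200 bp with shCHD4#1, 79.0% at -150 bp with shCHD4#2 and 74.0% at -250 bp with shScramble. At the start itself it was 73.4%, 76.8% and 68.4%, and at 250 bp into the gene 57.9%, 63.6% and 56.4%. At 1000 bp upstream it was 54.6%, 45.0% and 54.8%. The shCHD4#2 list was thus the highest of the 3 from 350 bp upstream to 600 bp downstream and the lowest at 1000 bp upstream. The starts were selected for a region nearby, so only the shape of the curves and their differences are described.

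**Figure D2:**
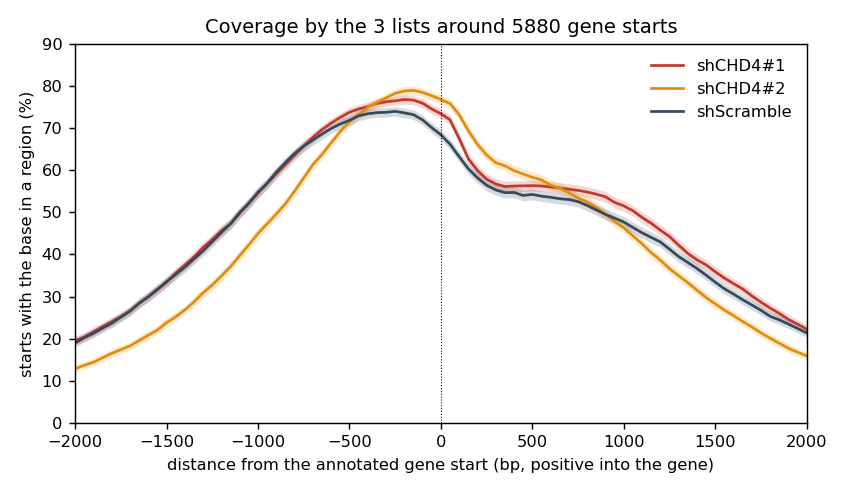
Percent of 5880 gene starts with a given base in a region of the shCHD4#1, shCHD4#2 or shScramble list, against distance from the start in bp (positive into the gene); shading is the 95% Wilson interval. All curves peak upstream of the start at 74.0% to 79.0% and step down within 250 bp after it, and the shCHD4#2 curve is the narrowest.

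Width could be compared at 4774 of the selected regions (50.1%), where each list had exactly 1 region. Median widths there were 1520 bp with shCHD4#1, 1280 bp with shCHD4#2 and 1460 bp with shScramble. Away from gene ends (18043 regions) they were 1450, 1050 and 1510 bp. The median log2 ratio to shScramble at gene ends was 0.04 with shCHD4#1 (95% interval 0.03 to 0.06, quartiles -0.28 and 0.41) and -0.17 with shCHD4#2 (-0.19 to -0.15, quartiles -0.60 and 0.21). Away from gene ends the medians were -0.04 and -0.50. Intervals are over regions, treat neighbours as independent and say nothing of replicates. The regions were thus narrower with shCHD4#2 than with shScramble at 61.5% of places at gene ends and at 79.9% of places away from them, and narrower with shCHD4#1 at 44.7% and 53.4%. Among regions with an authors' p of at most 0.05 the gene-end medians were 0.06 with shCHD4#1 and -0.04 with shCHD4#2.

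A width ratio past 1.5 is used as the call, without a test. With shCHD4#2, 25.8% (24.6 to 27.1) of the selected regions were narrower by that much, against 40.5% of all 22817 constitutive regions under 5 kb with 1 region per list, and 11.4% (10.5 to 12.3) were wider, against 6.19%. With shCHD4#1, 12.6% were narrower, against 14.8% of all, and 17.5% were wider, against 13.9%. With both hairpins, 429 (8.99%) were narrower, against 11.6% of all, and 330 (6.91%) were wider, against 3.76%. The background includes the selected regions themselves. Both comparisons use the same shScramble list, so a region that was narrow in that list counts as wider with both hairpins.

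**Figure D3:**
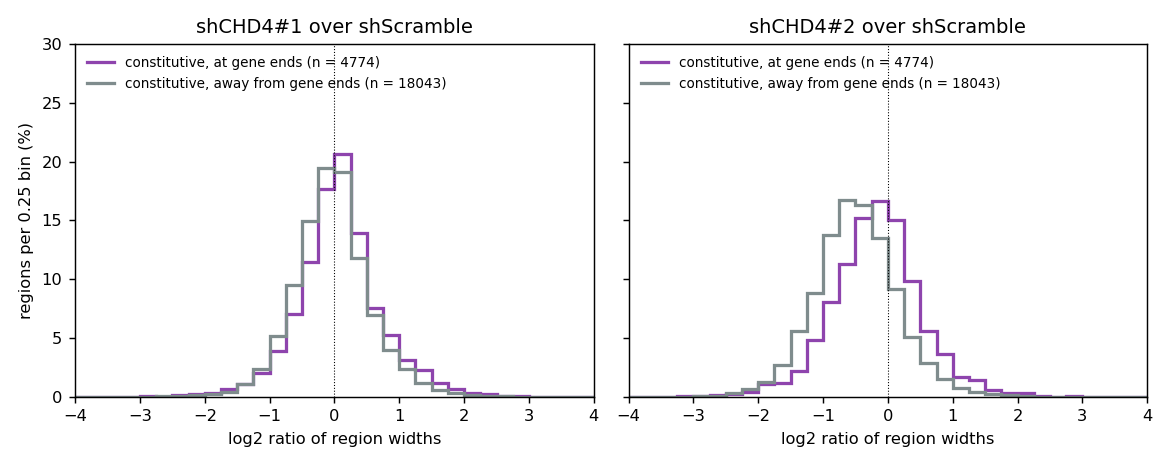
Distribution of the log2 ratio of region width, shCHD4#1 over shScramble (left) and shCHD4#2 over shScramble (right), in bins of 0.25, at 4774 constitutive gene-end regions and 18043 constitutive regions away from gene ends. With shCHD4#2 the gene-end curve lies to the right of the other, with medians of -0.17 and -0.50; with shCHD4#1 the medians are 0.04 and -0.04.

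The gap between gene ends and other sites was present within shared ranges of rank and of width. Ranks still differed within a range. The median shScramble rank point was 3.85 at gene ends and 5.48 away from them in the best range, and 84.0 and 76.0 in the poorest. In the poorest range, 41.6% of regions at gene ends and 17.2% of the others had only the shared p in the shScramble list. In the best quartile by shScramble rank, the median log2 width ratio with shCHD4#2 was -0.13 at gene ends and -0.52 at sites of the same rank range away from them, and in the poorest it was -0.28 and -0.55. For shScramble regions of up to 1000 bp the sign turned, at 0.31 at gene ends and 0.03 away from them, where the split is made on the ratio's own denominator. At sites with a shScramble width of 1000 to 2000 bp it was -0.18 at gene ends and -0.51 away from them. For shScramble regions of 2000 to 5000 bp the values were -0.51 and -0.78. With shCHD4#1 the values in these 3 width classes were 0.43, 0.05 and -0.21 at gene ends and 0.39, -0.04 and -0.33 away from them. Within the set, regions with only 3′ ends had a median of -0.37 with shCHD4#2 and 0.07 with shCHD4#1, while regions with a gene start had -0.15 and 0.03. The shCHD4#2 regions were narrower at most of the 22817 constitutive regions compared, at gene ends and away from them, and whether this reflects the cells, the depth of its libraries or the calling cannot be told apart.

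Individual regions differed far more than the medians. The 8 that were narrower by the largest factor with both hairpins were chosen for that, so their values are a description. CCND1, which encodes cyclin D1 and is activated by the EWSR1::FLI1 fusion (chromosome 11, 69640771 to 69643010), had 290 bp with shCHD4#1, 140 bp with shCHD4#2 and 2240 bp with shScramble. The same region stood at number 43261 of the shCHD4#1 list, 36390 of the shCHD4#2 list and 9178 of the shScramble list. The shared promoter region of PGM3, of UDP-GlcNAc synthesis, and RWDD2A (chromosome 6, 83193701 to 83198530) had 620, 700 and 4800 bp. In every one of these 8 the shScramble region was the widest of the 3, which the choice itself fixed. NSG1, a neuronal endosome protein gene, had 380, 330 and 2510 bp. GSC, the homeobox gene goosecoid, had 360, 660 and 4090 bp, and NOTUM, which encodes an inhibitor of Wnt ligands, 590, 470 and 3050 bp. The others were POFUT2 (430, 400 and 2200 bp), PLXNA3 (700, 630 and 3110 bp) and NCF1 (290, 290 and 1610 bp), which has near-identical copies.

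The 8 regions that were wider by the largest factor with both were likewise chosen for it. ZNF267 (chromosome 16, 31870911 to 31873650) had 2070 bp with shCHD4#1, 2730 bp with shCHD4#2 and 390 bp with shScramble. FAM20C, a kinase gene of the secretory pathway, had 2000, 3030 and 410 bp, and MRPL39, of the mitochondrial ribosome, 3590, 3260 and 680 bp. A neighbouring region at MRPL39 ran the other way, with 1330, 1120 and 1540 bp. ITGA6, the integrin alpha 6 gene, had 2340, 2280 and 480 bp. CLSPN, which encodes the checkpoint adaptor claspin, had 1490, 3210 and 320 bp. OVCA2 (2800, 2750 and 600 bp), LLGL2 with TSEN54 (2170, 1980 and 460 bp) and DBNL (1360, 2380 and 320 bp) completed them. At each of these 8 at least 1 list carried its shared p, at ZNF267, MRPL39 and DBNL in all 3 lists, whereas none of the 8 narrower regions carried it. Whether the shared p has a part in these widths was not tested.

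The targeted gene kept open ends in all lists. The start of CHD4 lay in a merged region of 5400 bp, over the width limit, which summed to 4710 bp with shCHD4#1, 4750 bp with shCHD4#2 and 4420 bp with shScramble. Its 3′ end shared a selected region with the start of NOP2, a ribosomal RNA methyltransferase gene (chromosome 12, 6565091 to 6569600), of 4510, 2480 and 1820 bp, with the shared p in every list. The degree of silencing cannot be read from these lists. Of 15 NuRD genes, 7 had a constitutive gene-end region and another 5 had one of 5 kb or more. MTA2, a scaffold subunit whose region also lay at EML3, had 860 bp with shCHD4#1, 1060 bp with shCHD4#2 and 2050 bp with shScramble. RBBP4, a histone chaperone, had 2490, 3240 and 1880 bp, and the methyl-CpG binding subunit gene MBD2 890, 670 and 860 bp. Of 5 NuRD genes with 1 region per list, CHD4 included, 4 were wider and 1 narrower with shCHD4#1, and 3 wider and 2 narrower with shCHD4#2. Their median log2 ratios were 0.38 and 0.26, against 0.04 and -0.17 over all selected regions.

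Of 19970 protein-coding genes, 9456 (47.4%, 95% Wilson interval 46.7 to 48.0) had a constitutive gene-end region. A further 2340 (11.7%) had only one of 5 kb or more, 3221 (16.1%) had a region of 1 or 2 lists, and 4953 (24.8%) had none. Most lists of basic cell functions stood above 47.4%, and lists of other tissues stood below it. The NuRD list had 7 of 15 (46.7%, 24.8 to 69.9), and 5 more of its genes had only a region of 5 kb or more. Aminoacyl-tRNA synthetases, which charge transfer RNAs, had 27 of 35 genes (77.1%, 61.0 to 87.9). Mitochondrial ribosomal proteins had 60 of 78 (76.9%), BAF chromatin remodelling subunits 19 of 25 (76.0%), core spliceosome proteins 22 of 30 (73.3%) and subunits of respiratory complex I 26 of 36 (72.2%). DNA repair genes had 23 of 34 (67.6%), proteasome subunits 26 of 39 (66.7%) and replication and cell cycle genes 23 of 35 (65.7%). Genes with ZNF symbols, most of them zinc finger factors, had 288 of 509 (56.6%, 52.2 to 60.8).

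Lists of tissue-restricted genes were lower. Neuronal and synaptic genes had 10 of 30 (33.3%), blood cell genes 9 of 30, epithelial genes 7 of 24 (29.2%), muscle genes 9 of 31 (29.0%) and liver and gut genes 6 of 30. The intervals of the neuronal, blood and epithelial lists reached past 47.4%. Of olfactory receptors 12 had one (3.06%, 1.76 to 5.27), and 355 had no region at all. Albumin and alpha-fetoprotein (ALB and AFP), the epithelial cadherin gene CDH1 and the T cell gene CD3D had no region at an end in any list. Of the 3 best-ranked genes of each of these tissue lists, most had a region that lay at no other gene. Examples were MYOG, which encodes myogenin, CD8A, a T cell coreceptor gene, and CDX2, an intestinal homeobox gene. The exceptions were TNNI3, of cardiac muscle, whose region also lay at DNAAF3, CPS1, of the urea cycle, at LANCL1, and the desmosome gene DSP, at SNRNP48. The region at KRT14, a keratin gene without a known strand here, spanned 41578071 to 41581620 on chromosome 17. It lay outside the gene itself (41582279 to 41586895). STX1A and SNAP25, of synaptic vesicle release, had regions of their own, STX1A of 1630 bp with shCHD4#1, 1840 bp with shCHD4#2 and 1170 bp with shScramble. Of the EWSR1::FLI1 activated genes, 14 of 26 (53.8%) had a constitutive gene-end region, 10 more had one of 5 kb or more, NKX2-2 among them with 13510 bp, and none lacked a region. An open end shows neither expression nor its absence.

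**Figure D4:**
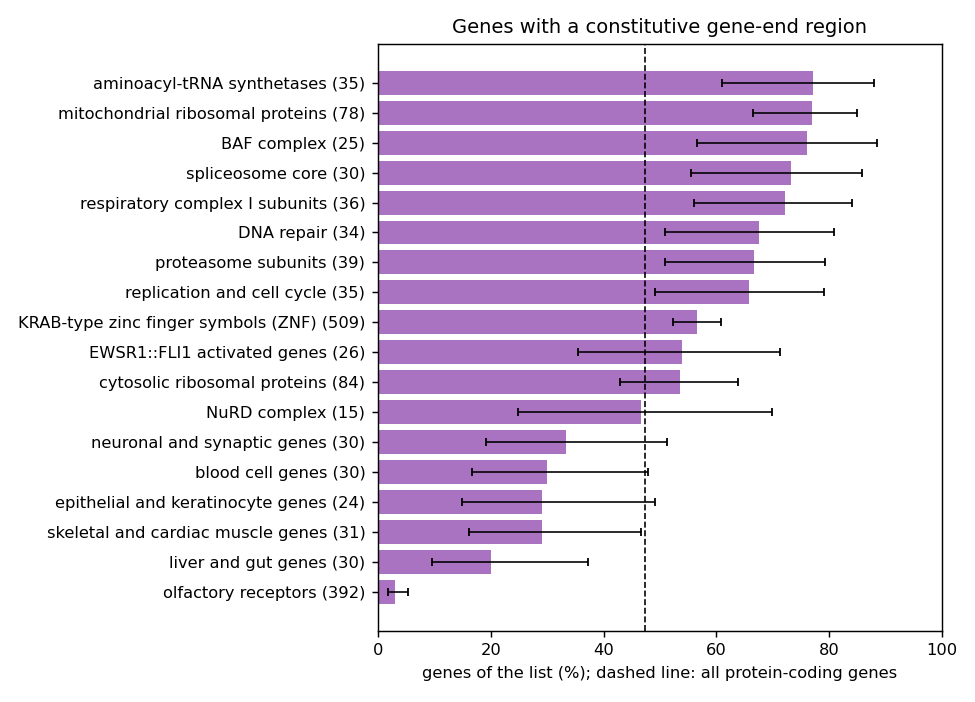
Percent of the genes of each list that have a constitutive gene-end region, with 95% Wilson intervals; list sizes are in parentheses and the dashed line marks all protein-coding genes at 47.4%. Most lists of basic cell functions stand highest, up to 77.1%, and olfactory receptors lowest at 3.06%. Cytosolic ribosomal proteins (53.6%) and the NuRD list (46.7%) stand below the ZNF list (56.6%). The bars leave out genes with only a constitutive region of 5 kb or more. These are another 34 of 84 cytosolic ribosomal protein genes, 5 of 15 NuRD genes and 42 of 509 ZNF genes.

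Cytosolic ribosomal protein genes, which build the ribosome, had a constitutive gene-end region at 45 of 84 (53.6%, 43.0 to 63.8), and 34 more had one of 5 kb or more. Their regions ranked high, at median rank points of 8.24 with shCHD4#1, 4.96 with shCHD4#2 and 6.19 with shScramble. At 24 of them the width could be compared, and the median log2 ratio was 0.16 with shCHD4#1 and 0.42 with shCHD4#2, against 0.04 and -0.17 over all selected regions. With shCHD4#2, 20 of 24 were wider and 4 narrower, against 1794 wider and 2934 narrower of all 4774. RPL29 had 310 bp with shCHD4#1, 1410 bp with shCHD4#2 and 370 bp with shScramble. RPS16 had 1650, 2440 and 930 bp, RPS15 1050, 1770 and 760 bp, and RPL38 1200, 2380 and 1110 bp. The regions of these 4 genes were widest with shCHD4#2. RPL29, RPS16 and RPS15 were under 1000 bp with shScramble, a class in which selected regions had a median of 0.31 with shCHD4#2. The part of shScramble width in the list's median was not tested. RPS27L (1920, 1390 and 2770 bp) and RPL36AL (1460, 1280 and 2060 bp) were among the narrower ones. Many ribosomal protein genes have processed copies elsewhere, and how reads with several matches were treated is not given in the sources used here. Mitochondrial ribosomal protein genes gave 0.03 and -0.30 over 31 regions.

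Genes that the EWSR1::FLI1 fusion activates, counted with 1 region per gene, were narrower with shCHD4#2 at 9 of 9 regions. With shCHD4#1 they were narrower at 7 of 9, against 61.5% and 44.7% of all selected regions with shCHD4#2 and shCHD4#1. The median log2 ratio was -0.21 with shCHD4#1 and -1.07 with shCHD4#2. Other lists had low medians too: olfactory receptors had -0.38 and -0.97, with 6 of 7 narrower in both comparisons, and muscle genes -0.37 and -0.76, with 2 and 3 of 4 narrower. Besides CCND1, the start of PHLDA1 had 1100 bp with shCHD4#1, 750 bp with shCHD4#2 and 2730 bp with shScramble. The start of IGF1, insulin-like growth factor 1, had 3060, 1500 and 3090 bp, and PRKCB, a protein kinase C gene, 2220, 840 and 1760 bp. A second region at PRKCB had 2300, 1080 and 2470 bp, and the shCHD4#2 region was again the narrowest. VRK1, a nuclear kinase, had 960, 540 and 1190 bp, and ITM2A 2660, 1930 and 2550 bp. At NR0B1, an orphan nuclear receptor gene induced by the fusion, the region at the 3′ end (chromosome X, 30301621 to 30305400) had 3270, 1800 and 3780 bp. A second region held its start (30307041 to 30311950), with 2, 3 and 2 listed regions that summed to 3020, 3890 and 4730 bp. KDSR (1260, 1310 and 1410 bp), ITM2A and FOXM1 (1010, 1100 and 1530 bp) had the ratios nearest to 1 with shCHD4#2. Among selected regions of 2000 to 5000 bp with shScramble, 84.1% were narrower with shCHD4#2 and 68.8% with shCHD4#1. Their medians were -0.51 and -0.21. CCND1, PHLDA1, IGF1, ITM2A and the 3′ end of NR0B1 were in that class. VRK1, KDSR, FOXM1 and the first PRKCB region (1760 bp) had narrower shScramble regions, whereas the second PRKCB region (2470 bp) was in the class. The part of shScramble width in the low ratios was not tested. The lists of ribosomal and fusion-activated genes were not tested either. With 1 region counted per gene, they use 24 and 9 of the 4774 regions.

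**Figure D5:**
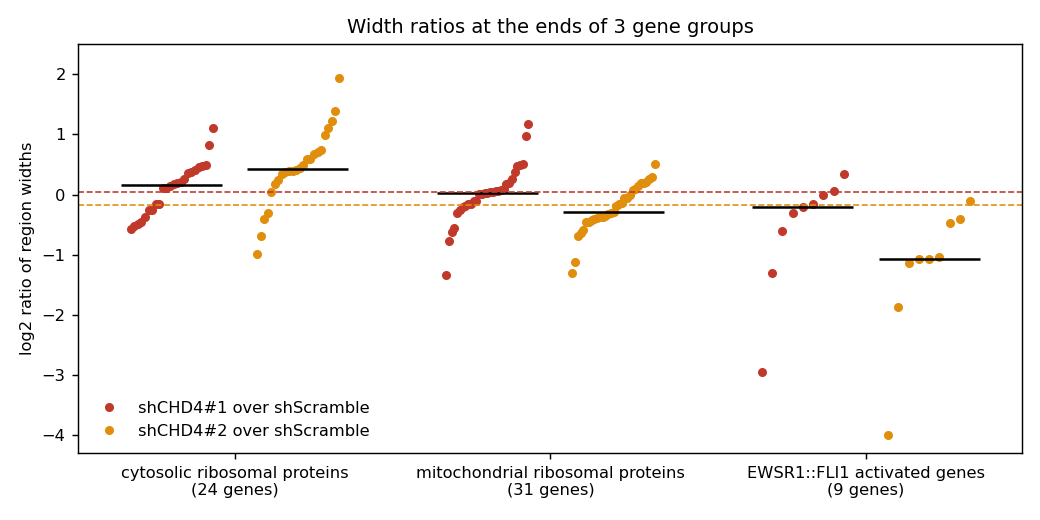
Log2 ratio of region width, shCHD4#1 and shCHD4#2 over shScramble, for each gene with 1 region per list; black bars are the medians of a group and dashed lines those of all 4774 regions (0.04 and -0.17). With shCHD4#2 most cytosolic ribosomal protein regions lie above 0 (20 of 24) and the 9 fusion-activated ones below it.

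Promoters in the selected regions differed in base composition and motifs from promoters in no region. A promoter here is the stretch from 250 bases before to 50 after the start, and it counted as in a region when they shared at least 1 bp. This held for 5856 of 15811 promoters, while 5355 were in no region of any list. CpG-rich promoters, with over 50% GC and an observed over expected CpG ratio above 0.6, made up 82.7% (81.7 to 83.6) of promoters in the selected regions, 34.2% (33.0 to 35.5) of those in no region and 63.3% of all. The median GC content was 64.7%, 55.3% and 62.7%. The ETS motif CCGGAAGT was in 10.5% of promoters in the selected regions, 1.21% in no region and 6.19% of all. NRF1 (GCGCATGCG) was in 4.29%, 0.82% and 2.76%, YY1 (AAGATGGCG) in 4.71%, 0.54% and 2.74%, and the GC box (GGGGCGGGG) in 27.4%, 12.6% and 22.4%. The reverse order was found for the TATA box (TATAAA), in 4.87%, 16.7% and 9.64%, and for AP-1 (TGANTCA), in 3.64%, 8.63% and 5.76%. The CCAAT box, which NFY binds, was in 40.1%, 32.9% and 36.3%. Most of this profile was not particular to the set. Of promoters in constitutive regions of 5 kb or more, 80.2% were CpG-rich, and the median GC content was 65.0%. ETS was in 8.51% of them, NRF1 in 3.67%, YY1 in 4.09%, the GC box in 28.5% and the TATA box in 7.60%. Promoters in the remaining regions, mostly of 1 or 2 lists, were 66.9% CpG-rich, with a median GC content of 66.0%. GC content differed alongside, and its part in these shares was not tested.

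Within the selected regions, the shares of some motifs were ordered by rank and those of others were not. From the best to the poorest quartile by shScramble rank, promoters with a CCAAT box made up 53.2%, 35.7%, 32.7% and 30.2%. With the flank (CCAATCAG, which contains the CCAAT box) the shares were 10.7%, 5.13%, 3.40% and 3.75%, against 5.19% of all promoters. The ETS motif was in 13.3% of the best quartile and 6.71% of the poorest. No such order was seen for the E-box, at 10.9%, 10.0%, 11.4% and 10.2%, NRF1, at 4.30%, 5.27%, 4.45% and 2.87%, the cyclic AMP response element, at 3.57%, 3.30%, 3.96% and 2.87%, or the TATA box, at 4.25%, 5.06%, 5.66% and 4.88%. The GC box ran the other way, in 22.6%, 26.2%, 31.8% and 32.8%, and median GC content was 62.0%, 64.2%, 66.7% and 69.0%. The part of GC content in these shares was likewise not tested. Ranked by the second value, CCAAT boxes were in 54.3% of the best quartile and 27.7% of the poorest. Regions with a CCAAT box with flank stood at median rank points of 4.97 with shCHD4#1, 4.94 with shCHD4#2 and 6.22 with shScramble. Of the remaining motifs searched, the cyclic AMP response element (TGACGTCA) was in 3.45% of promoters in the selected regions and 2.59% of all, ZBTB33 (CTCGCGAG) in 2.20% and 1.53%, the E-box (CACGTG) in 10.7% and 8.87%, and the GGAA repeat (GGAAGGAAG), the kind of sequence that EWSR1::FLI1 binds, in 1.64% and 1.60%. A match describes letters and not a bound factor.

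Median width ratios were also taken by promoter kind, without a test. Regions with CpG-rich promoters had a median log2 ratio of 0.04 with shCHD4#1 and -0.10 with shCHD4#2, and the others 0.01 and -0.26. By motif the medians with shCHD4#2 ran from -0.05 for YY1 (110 regions) to -0.29 for NRF1 (94 regions) and -0.35 for ZBTB33 (42 regions). The median was -0.15 over selected regions with a gene start and -0.17 over all selected regions. Among promoters in regions that were wider with shCHD4#2 by over 1.5 times, 14.6% (11.2 to 18.8) held an E-box, against 7.69% (5.78 to 10.2) in narrower ones and 10.7% in all selected regions. The GC box was in 32.5% (27.7 to 37.7), 24.7% (21.3 to 28.3) and 27.4%. NRF1 was in 2.69% (1.42 to 5.03), 4.72% (3.26 to 6.78) and 4.29%, and ZBTB33 in 0.90% (0.31 to 2.60), 2.10% (1.20 to 3.63) and 2.20%. Wider and narrower regions gave 9 and 27 promoters with NRF1 and 3 and 12 with ZBTB33, and the intervals overlapped for both motifs. CCAAT boxes were in 42.1%, 39.2% and 40.1%. Median GC content was 66.3% in the wider and 62.7% in the narrower, and its part was not tested.

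Every chromosome analysed carried such regions. The share of its genes with one was highest on chromosome 17 (52.4%, 49.5 to 55.2) and chromosome 19 (52.0%) and lowest on the X chromosome (35.5%, 32.3 to 38.8), chromosome 21 (38.1%) and chromosome 8 (38.7%). Merged widths ran from 310 to 4990 bp with a median of 2620 bp. The narrowest were at TNFAIP3, an inhibitor of NF-kappaB signalling (310 bp), and SUZ12, a subunit of Polycomb repressive complex 2 (340 bp). At the width limit, the 5 widest inside it all spanned 4990 bp, among them CRYZL1 with ITSN1 and CENPM with SMIM45. The 5 narrowest outside it all spanned 5000 bp, among them FANCG with VCP and ATN1 with ENO2. Regions of the same list that abut without a gap were not joined, and 21.7% of the shCHD4#1 regions, 18.4% of the shCHD4#2 regions and 18.5% of the shScramble regions in the set abutted another.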

How the data were processed

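The 9 samples were ATAC-seq libraries, grouped by the treatment in the labels. Tools named per the submitters' processing notes were BWA, deepTools 3.2.1, FastQC 0.11.7, SAMtools 1.9 and Trimmomatic 0.36, and the builds named were GRCh38 and dm6. For the peak caller, a Tn5 shift and the use of the spike-in, details were not given in the sources used here. The deposited lists, filed under replicate 1 of each group, name ChIP-R, which combines replicate peak lists. Each deposited region has 2 scores and a p-value and q-value from the authors, used only to rank or filter within a list, and the second value is one of these scores. Read numbers are absent from the lists, so depth is unknown and the precision it gives with it.

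Regions with a second value below 0 or wider than 20 kb were dropped (413, 417 and 416 with shCHD4#1, shCHD4#2 and shScramble), which left 122456, 82824 and 85359. Of these, 12474, 12316 and 12340 lay in the selected regions. Tied p-values received their mean rank, and a merged region took the best rank of its regions. Gene ends came from the RefSeq gene table for GRCh38.p14, strands and promoters from the RefSeq promoter table. In 83.8% of its 15811 entries the start equals the outer gene end, and the curves around starts and the printed promoters use only those. Motif letters were searched on both strands. Named genes followed a rule: 4 genes of interest, the best-ranked regions, the widest and narrowest, the largest changes with both hairpins, up to 3 genes of each of 18 lists with the best ranks and up to 3 without a region, and the regions at most genes; not all are printed, and further members of the ribosomal and fusion-activated lists were named after their values were seen. The 155 regions tied for the poorest rank are not named singly. The regions, gene lists and motifs were chosen with earlier results of these data known.

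Shares have 95% Wilson intervals and medians 95% order-statistic intervals, which cover counting error only. Overlaps, membership and width ratios were tested on simulated regions. Alternatives were the width limit, the gene-end window, the regions used, the overlap, the dropped regions, the width measure and the ranking value. Python 3.11.15, pandas 2.3.3, numpy 2.4.6 and scipy 1.17.1 were used.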

Additional observations from a re-analysis of the deposited data

How the results depend on the processing

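No paired analysis was possible because each group has 1 list, which also leaves no replicate to omit. The medians of the log2 width ratio kept their sign under every alternative tried. The 9521 regions and 9456 genes became 2819 and 2976 with a width limit of 2 kb, 2543 and 3222 with only regions at a p of at most 0.05, and 3428 and 4243 with the best 20000 regions of each list; these settings admit fewer regions by construction. With a limit of 10 kb, a window of 500 bp or 5 kb, an overlap of 50% of the shorter region, or no region dropped, both counts stayed within 1.5 times. The median log2 width ratio with shCHD4#1, 0.04, was 0.064 at a p of at most 0.05 and 0.074 in the best 20000. With shCHD4#2 it was -0.038 and -0.048 there, -0.11 under the 2 kb limit, -0.24 with the 5 kb window and -0.15 with the 50% overlap, against -0.17, and the cause was not tested. Median rank points with shCHD4#1, shCHD4#2 and shScramble were 18.2, 19.0 and 27.3 with the 10 kb limit, 21.8, 24.7 and 29.8 with 2 kb, 17.8, 18.7 and 27.0 with the 500 bp window and 21.0, 24.9 and 29.6 with 5 kb. They were 3.22, 3.63 and 3.59995 at a p of at most 0.05, 4.44, 5.05 and 5.31 in the best 20000, 17.1, 18.6 and 25.1 with the 50% overlap and 22.5, 22.2 and 26.5 by the second value. Without the regions that carried a shared p in any list, an alternative chosen after seeing the data, 7989 regions and 8593 genes remained, with rank points of 15.9, 16.9 and 22.99 and width ratios of 0.04 and -0.18. Counts of the 18 gene lists left their intervals in 17 lists at a p of at most 0.05, 15 with 2 kb, 13 in the best 20000, 10 with 10 kb, 4 with the 5 kb window and 1 with the 50% overlap. Depth is unknown, so absence from a list is not evidence of closed chromatin.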
